A study of Mus musculus and Homo sapiens with 60 samples.

Results

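The start sites of 6 cell-cycle regulators were followed through the 9 deposited ChIP-seq peak lists of P493-6 cells: 3 genes that drive the cycle (CCND2, E2F1 and CDC25A) and 3 that restrain it (CDKN1A, CDKN1B and CDKN2B). A peak was assigned to a gene when it overlapped, by at least 1 bp, the window of 2.5 kb to each side of the start site on hg19. These windows held 49 of the 185318 peaks in the 9 lists. The rule names the genes and the window positions and uses no measured value.

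Chromatin immunoprecipitation followed by sequencing (ChIP-seq) maps where a protein or histone mark sits on DNA, and a peak is a stretch where its reads pile up over an input. P493-6 is a human B-cell line in which tetracycline switches off a Myc transgene, and it was grown in RPMI with 10% tetracycline-free serum in every condition. Myc and RNA polymerase II (RNAPII) at 0 h came from cells in 0.2 µg/mL tetracycline. The 1 h (Myc) and 24 h (Myc, RNAPII, H3K4me3 and H3K27ac) cells had 72 h of the same tetracycline dose and then fresh medium without it. The low Myc cells had tetracycline plus 200 nM 4-hydroxytamoxifen (OHT), which per the labels activates the endogenous gene, and the high Myc cells were untreated. The labels give no duration of tetracycline for the 0 h and low Myc cells. Each antibody and condition had 1 library of this 1 cell line, so no difference below has a replicate check and none was tested.

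Myc is a transcription factor that binds E-box DNA with its partner MAX, mostly at promoters that are already open, and it is known for pushing resting cells into the cycle. D-type cyclins such as the CCND2 product activate CDK4 and CDK6, which loosens the RB protein from E2F factors such as E2F1 and lets S-phase genes be transcribed. CDC25A is a phosphatase that removes inhibitory phosphates from cyclin-dependent kinases. CDKN1A (p21) and CDKN1B (p27) bind and inhibit cyclin-CDK complexes, and CDKN2B (p15) inhibits CDK4 and CDK6. Repression of inhibitor genes by Myc has been linked to its partner MIZ1 at their promoters. H3K4me3 marks promoters, and H3K27ac marks active promoters and enhancers.

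The lists differed in length and in peak width, and the number of peaks sets how many of any group of sites can be called. Myc peaks numbered 791 at 0 h, 8666 at 1 h, 18257 at 24 h, 4309 at low Myc and 26146 at high Myc. RNAPII peaks numbered 13026 at 0 h and 24613 at 24 h, and the 24 h lists of H3K4me3 and H3K27ac held 29953 and 59557. The median width of a Myc peak ran from 285 bp at 0 h to 587 bp at high Myc. Read depth is not known from peak lists, so whether depth or enrichment moves with the counts below was not tested. The deposited score of a peak, on the scale of -10 log10 of its p-value, is the authors' own value, and every list starts just above 80. It is used here only to place a peak within its own list, and ranks from lists of different length show no change. B-cell marker genes were not checked, since no hg19 annotation was used here.

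All 6 start sites lay under a 24 h H3K4me3 peak, so each is a marked promoter in these cells. For a background, windows of the same size were set around the middle of each of the 29953 H3K4me3 peaks of 24 h cells. A Myc peak lay in the window of no member at 0 h (background 1.35%), of 2 at 1 h (23.1%), of 4 at 24 h (42.2%), of 1 at low Myc (10.9%) and of 6 at high Myc (53.9%). RNAPII was called at 2 members at 0 h (background 25.4%) and at 3 at 24 h (39.7%), and H3K27ac at 5 at 24 h (85.8%). The 4 members with Myc at 24 h had none at 0 h, a pattern of 40.8% of background windows and of 58.4% around H3K4me3 peaks at or above the median score. H3K4me3 was called at all 6, against 50.5% of windows around H3K27ac peaks. Since H3K27ac also marks enhancers, that share is not a background of promoters and shows no excess at the members. Each member is 16.7% of the 6, and every member also had an H3K4me3 peak above the median score of its list. Around H3K4me3 peaks at or above that median, a background added after the counts were known, the shares were 2.34% for Myc at 0 h, 36.5% at 1 h, 60.8% at 24 h, 17.2% at low Myc and 77.4% at high Myc. They were 42.5% for RNAPII at 0 h, 67.3% at 24 h and 94.5% for H3K27ac. The share of that background, taken of 6 members, was 0.14 for Myc at 0 h, 2.19 at 1 h, 3.65 at 24 h, 1.03 at low Myc and 4.64 at high Myc. It was 2.55 and 4.04 for RNAPII at 0 h and 24 h and 5.67 for H3K27ac. The counts were within 1 gene of these in 6 of the 8 lists, and in the other two (high Myc with 6 and RNAPII at 24 h with 3) within 2 genes. None of the 8 counts is therefore a result about cell-cycle genes as a group.

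**Figure D1:**
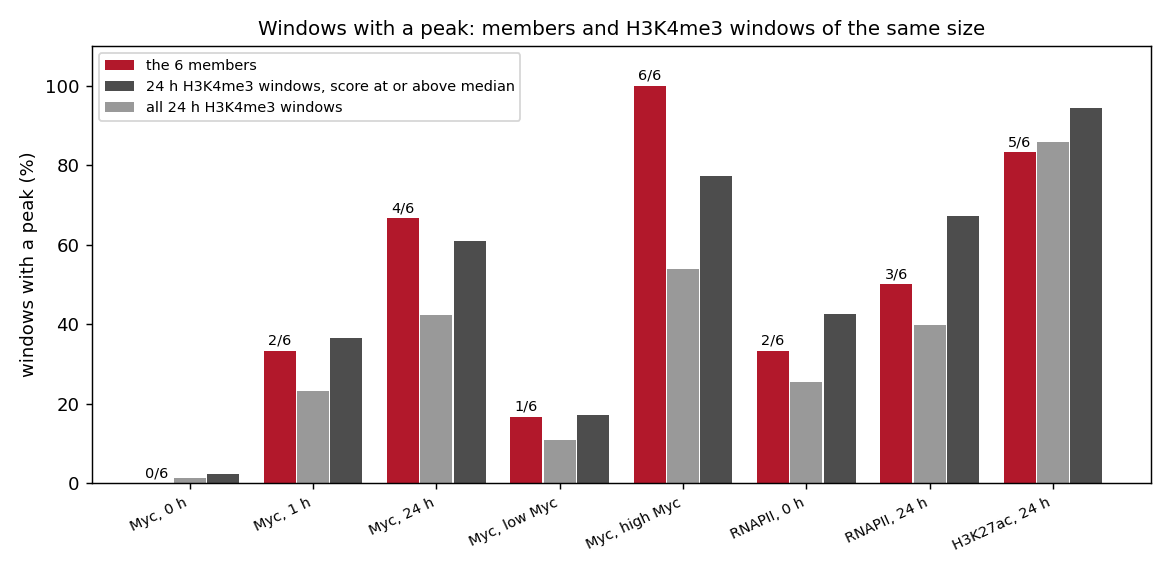
Share of windows with a peak (vertical axis, %) in each list: the 6 members (red, with counts), windows around all 24 h H3K4me3 peaks (light grey) and around those at or above the median score (dark grey), 1 library per list. Myc was called at 0 members at 0 h and at 6 at high Myc, and no list has a members' bar more than 2 genes from the dark bar.

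Myc counts were also taken separately for drivers and inhibitors, against the background shares above. At 24 h Myc was called at 3 of 3 drivers and 1 of 3 inhibitors, at 1 h at 2 of 3 and 0 of 3, and at low Myc at 1 of 3 and 0 of 3. At high Myc it was called at 3 of 3 in both, and at 0 h at 0 of 3 in both. CCND2 had Myc in 4 of the 5 Myc lists, CDC25A in 3, the driver E2F1 and the inhibitor CDKN1A in 2 each, and CDKN1B and CDKN2B in 1. All 6 had Myc in at least 1 list, as did 58.0% of all background windows and 80.1% of those with H3K4me3 at or above the median score. CCND2 alone had it in 4 or more, as did 9.04% and 15.0% of these windows. With 3 genes a side and no test, these counts describe the named genes only and show no difference between the groups.

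**Figure D2:**
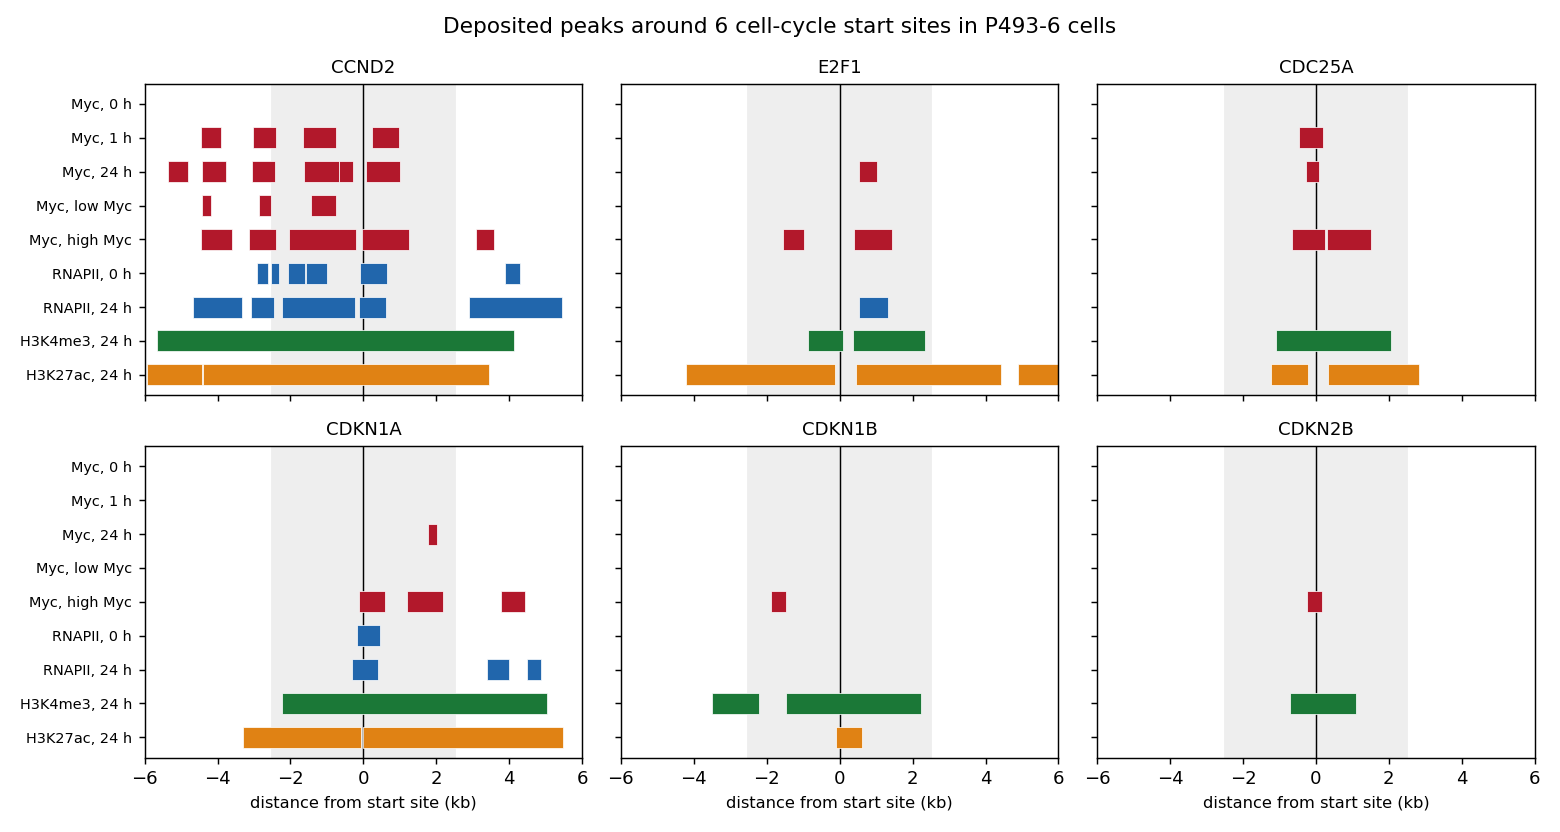
Position of every deposited peak within 6 kb of the start sites (horizontal axis, kb along the direction of transcription; vertical line, start site; grey, the window of 2.5 kb), 1 row per list. CCND2 carries rows of Myc and RNAPII peaks over a broad H3K4me3 peak. CDKN1B and CDKN2B have 1 Myc peak each, at high Myc, and no RNAPII peak at 0 h or 24 h. The high Myc cells had no RNAPII list.

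CCND2 (chromosome 12, start site 4382902, plus strand) had the most Myc binding of the 6, in 3 stretches that recurred between lists. The first ran from 3144 to 2385 bp upstream and was called at 1 h, 24 h and high Myc. A second ran from 2052 to 212 bp upstream and was called in all lists but 0 h. The third ran from 27 bp upstream to 1247 bp downstream and was again called at 1 h, 24 h and high Myc. The second stretch held the one low Myc peak of the window, chromosome 12, 4381474 to 4382140, 667 bp wide and ranked 1394 of 4309 by score. A further low Myc peak of 326 bp ended 46 bp outside the window, in the first stretch, with a rank of 1749, so the edge of the window decides whether 1 or 2 of the stretches count at low Myc.

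At 1 h the upstream peaks of CCND2 ranked 1024 (625 bp wide) and 1088 (904 bp) of 8666 and the downstream peak 2178 (741 bp). At 24 h the second stretch had a peak of 947 bp at rank 1391 of 18257 beside a weak one of 369 bp at rank 11869. The first stretch (649 bp) ranked 1720, and the downstream peak (923 bp) ranked 4246. At high Myc the second stretch was 1 peak of 1841 bp at rank 865 of 26146, above 96.7% of its list, between peaks at ranks 3187 (760 bp) and 4058 (1275 bp). The strongest Myc peak at CCND2 scored above that of every other member with Myc at 1 h, 24 h and high Myc, and at low Myc no other member had a peak. The nearest Myc peak to CCND2 at 0 h was 1.46 Mb away.

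RNAPII was already called at CCND2 under tetracycline. At 0 h the window held 4 RNAPII peaks, the strongest over the start site (748 bp, rank 4642 of 13026), and at 24 h it held 3. The 24 h peak over the start site was 755 bp wide and ranked 4521 of 24613. The strongest 24 h RNAPII peak lay not there but from 2232 to 232 bp upstream, over the second Myc stretch, with a width of 2001 bp and a rank of 1107. Of the 1841 bp of the high Myc peak in that stretch, 1821 bp were covered by 24 h RNAPII. RNAPII covered 2001 bp of the window at 0 h and 2797 bp at 24 h. All of the window lay under a single H3K4me3 peak of 9768 bp, the 143rd widest of its list, and under a single H3K27ac peak of 7863 bp.

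Within 12 kb of the CCND2 start site, a distance chosen after these values were seen, RNAPII peaks numbered 6 at 0 h and 11 at 24 h and covered 2726 and 11403 bp. At 24 h, 7 of these lay in a chain from 2.89 to 12.4 kb downstream, where the 0 h list had 1 peak, from 3.89 to 4.28 kb. Among windows of that size around the H3K4me3 peaks, 0.354% held at least as much RNAPII at 24 h and 3.66% at least as much at 0 h. At CDKN1A the covered length was 1433 bp at 0 h and 3891 bp at 24 h, in 3 and 6 peaks. The medians of such windows with any RNAPII peak were 742 bp at 0 h and 919 bp at 24 h. Fold changes were not taken, since a longer list covers more of any window.

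**Figure D3:**
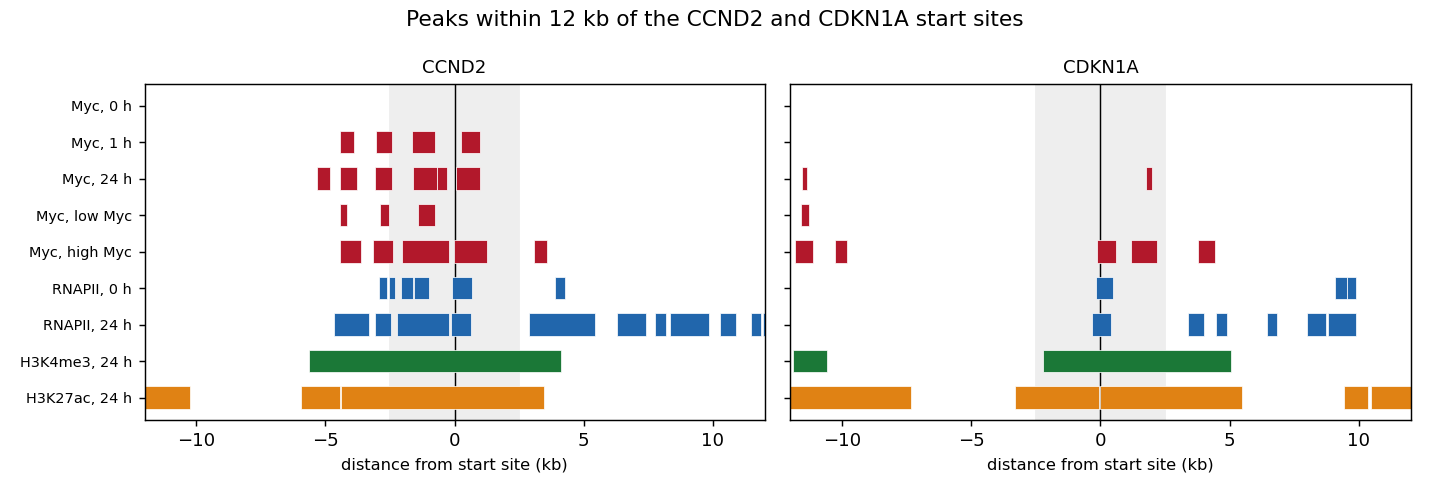
Peaks within 12 kb of the CCND2 and CDKN1A start sites (horizontal axis, kb along the direction of transcription; grey, the window of 2.5 kb), 1 row per list and 1 library per row. RNAPII peaks extend downstream of CCND2 at 24 h to 12.4 kb, and Myc at CDKN1A includes a site about 11 kb upstream that is also in the low Myc list.

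E2F1 (chromosome 20, start site 32274210, minus strand) had Myc in 2 lists, 24 h and high Myc, with the stronger peaks downstream of the start site. The 24 h peak, chromosome 20, 32273176 to 32273688, was 513 bp wide, lay 522 to 1034 bp downstream and ranked 3838 of 18257. The high Myc peak over it was 1042 bp wide (401 to 1442 bp downstream) and ranked 1908 of 26146, above 92.7% of its list. A second high Myc peak lay 1566 to 986 bp upstream and was weak (581 bp, rank 17342). The nearest Myc peak at 1 h was 19.3 kb away and at low Myc 92.4 kb away.

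RNAPII at E2F1 was called at 24 h and not at 0 h, the one member of the 6 with that pattern, which 16.6% of all background windows and 27.1% of those with H3K4me3 at or above the median score had. Its peak of 812 bp ranked 8791 of 24613, lay 517 to 1328 bp downstream and contained the whole 24 h Myc peak. The nearest 0 h RNAPII peak was 19.4 kb away. E2F1 kept its 24 h RNAPII peak when that list was cut to its 13026 highest-scoring peaks, the length of the 0 h list. H3K4me3 at E2F1 came in 2 pieces. A weak one of 970 bp lay over the start site (score 248.55, above 32.2% of its list). A stronger one of 1981 bp, 364 to 2344 bp downstream, held the Myc and RNAPII peaks and scored 3100, a value that 9685 H3K4me3 peaks shared. H3K27ac lay on both sides, in peaks of 3974 and 4061 bp that left the start site itself uncovered.

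CDC25A (chromosome 3, start site 48229801, minus strand) carried Myc over the start site at 1 h, 24 h and high Myc. No RNAPII peak lay in its window at 0 h or 24 h, and the 1 h and high Myc cells had no RNAPII list. The 1 h Myc peak was 660 bp wide and ranked 7443 of 8666. The 24 h Myc peak, chromosome 3, 48229720 to 48230077, was 358 bp wide and ranked 11613 of 18257. Both were in the lower 50% of their lists by score. At high Myc the peak over the start site was 887 bp wide at rank 4699 of 26146, beside one of 1203 bp at rank 5081 that lay 307 to 1509 bp downstream. The 3 peaks over the start site overlapped one another, and the 24 h peak lay wholly within those of 1 h and high Myc.

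The nearest RNAPII peak to CDC25A was 52.7 kb away at 0 h and 52.6 kb at 24 h. RNAPII was called at neither time at CDC25A, CDKN1B and CDKN2B, as at 58.0% of all background windows but 30.4% of those with H3K4me3 at or above the median score. Among H3K4me3 peaks at least as wide as the one over the start site, a comparison chosen after the values were seen, RNAPII was called at 24 h in 80.8% for CDC25A, 84.0% for CDKN1B and 63.9% for CDKN2B. Myc at 24 h with RNAPII at neither time, the pattern of CDC25A alone among the 6, was found in 12.6% of all background windows and 9.38% of those with H3K4me3 at or above the median score. H3K4me3 covered its start site in 1 peak of 3130 bp, and H3K27ac flanked it in peaks of 2498 and 1038 bp, of which the second overlapped 71 bp of the 24 h Myc peak. A list holds only peaks that passed the authors' threshold, so a missing RNAPII peak is a level below the call, not a measured 0.

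CDKN1A (chromosome 6, start site 36646459, plus strand) was the inhibitor with Myc at 24 h, and that peak was weak and away from the start site. It was 247 bp wide, lay 1765 to 2011 bp downstream (chromosome 6, 36648224 to 36648470) and ranked 16463 of 18257, above 9.83% of its list. At high Myc a peak of 987 bp at the same place ranked 7916 of 26146 and another of 714 bp over the start site ranked 13655. The nearest Myc peak at 1 h was 74.4 kb away. The low Myc list had its nearest peak 11.3 kb upstream (298 bp, rank 3268 of 4309), at a site also called at 24 h (199 bp, rank 16095) and high Myc (682 bp, rank 7466). That upstream site lay in an H3K4me3 peak of 1304 bp and an H3K27ac peak of 9035 bp.

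RNAPII covered the CDKN1A start site at both times. CDKN1A and CCND2 were the 2 members with RNAPII at 0 h and 24 h, as had 23.1% of all background windows and 40.2% of those with H3K4me3 at or above the median score. Among H3K4me3 peaks as wide as that of CCND2, 72.7% had RNAPII at 0 h and 80.4% at 24 h, and among those as wide as that of CDKN1A 75.8% and 83.9%, so RNAPII at either time was common at such peaks. The 0 h peak was 642 bp wide and ranked 1854 of 13026, and the 24 h peak was 720 bp wide and ranked 3623 of 24613. They scored above 85.8% and 85.3% of their lists. At 0 h CDKN1A thus scored above CCND2 (strongest peak at rank 4642, over the start site). At 24 h it scored below the strongest CCND2 peak (rank 1107), which lay upstream. Its score was still above that of the 24 h CCND2 peak over the start site (rank 4521). The 24 h Myc peak of CDKN1A did not touch RNAPII (0 bp), while the high Myc peak over the start site shared 538 bp with the 24 h RNAPII peak. H3K4me3 covered 4725 bp of the window in a peak of 7259 bp, and H3K27ac 4948 bp in peaks of 3240 and 5481 bp.

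CDKN1B (chromosome 12, start site 12870302, plus strand) had Myc in the high Myc list alone. The peak was 427 bp wide, lay 1887 to 1461 bp upstream (chromosome 12, 12868415 to 12868841) and ranked 20954 of 26146. It shared 25 bp with the H3K4me3 peak of 3726 bp over the start site and 0 bp with H3K27ac. A second, weaker H3K4me3 peak of 1283 bp lay 3500 to 2218 bp upstream, at rank 18185 of 29953. H3K27ac at CDKN1B was 1 narrow peak of 706 bp over the start site at rank 46784 of 59557. The nearest RNAPII peak was 20.3 kb away at 0 h and 20.4 kb at 24 h, and the nearest 24 h Myc peak 69.3 kb.

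CDKN2B (chromosome 9, start site 22009312, minus strand) also had Myc in the high Myc list alone, at the bottom of that list. The peak covered the start site (chromosome 9, 22009150 to 22009557, 408 bp) with a score of 80.65 where the lowest of the list was 80.02, at rank 26065 of 26146. Myc at high Myc and not at 24 h, as at CDKN1B and CDKN2B, was found in 15.4% of all background windows and 19.1% of those with H3K4me3 at or above the median score. CDKN2B was the one member without H3K27ac. So were 14.2% of all background windows and 5.48% of those with H3K4me3 at or above the median score, and 95.1% of windows at H3K4me3 peaks as wide had H3K27ac. Its H3K4me3 peak of 1825 bp scored 2651.9, above 65.7% of its list. The nearest peaks of 24 h Myc, RNAPII at 0 h and 24 h and H3K27ac all lay downstream, at 13.8, 13.9, 13.8 and 13.9 kb.

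Within the 2 Myc lists that held 4 or more members, the members stood in the same order by strongest score: CCND2, E2F1, CDC25A, CDKN1A. At 24 h these peaks scored above 92.4%, 79.0%, 36.4% and 9.83% of the list. At high Myc they scored above 96.7%, 92.7%, 82.0% and 69.7%, followed by CDKN1B at 19.8% and CDKN2B at 0.298%. The members called at 24 h were thus the 4 with the highest scores at high Myc. Of all 24 h Myc peaks, 85.1% overlapped a high Myc peak, and how often other sites keep their order was not tested. At 1 h CDC25A was called and E2F1 was not, so the order is that of these 2 lists only. When each list was cut to its 4309 highest-scoring peaks, the length of the low Myc list, Myc was left at CCND2 alone at 1 h and low Myc, and at CCND2 and E2F1 at both 24 h and high Myc. With 8666 peaks each, the length of the 1 h list, 1 h had 2 members (CCND2 and CDC25A), 24 h also had 2 (CCND2 and E2F1) and high Myc had 4 (these and CDC25A and CDKN1A). The difference between 2 members at 1 h and 4 at 24 h was thus not there with 8666 peaks each, although the genes were not the same. With 4309 peaks each, 1 h had 1 member and 24 h had 2. At equal list length the 24 h and high Myc lists therefore differed at 0 members with 4309 peaks and at 2 with 8666. Both lengths were chosen after the counts were known. Shares of background windows were not taken at these lengths, so the counts describe the named genes only. Whether other promoters behave alike was not tested.

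**Figure D4:**
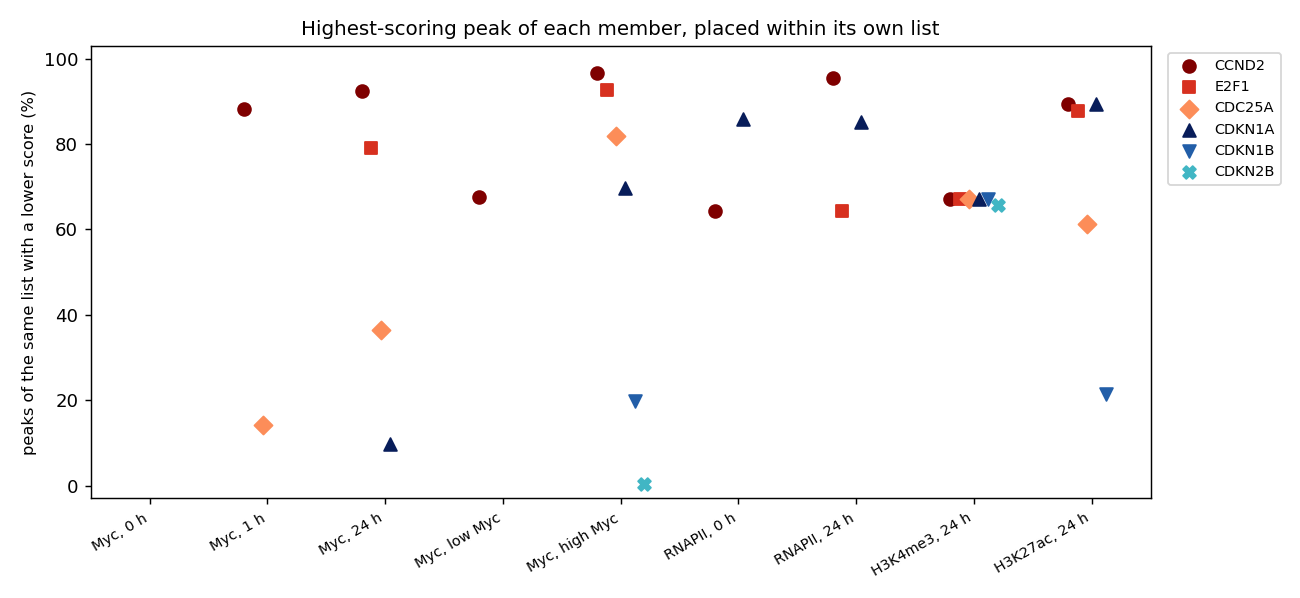
Highest-scoring peak of each member, placed by the share of its own list that scored lower (vertical axis, %), for each of the 9 lists (horizontal axis). No point means no peak in the window. In the 24 h and high Myc lists CCND2 stands highest and CDKN1A below E2F1 and CDC25A, CDKN2B lies at 0.298% at high Myc, and the H3K4me3 points of 5 members tie at the score 3100.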

How the data were processed

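The submitters' processing notes name BWA 0.6.2 (an aligner), SAMtools, the peak caller MACS 1.4.1 and the build hg19, and give no settings. The notes name mm9 for the high Myc sample, but its chromosome 1 peaks reach 249219825, as in the other P493-6 lists (249152517 to 249240358), and 92.7% of 1 h Myc peaks overlap it, so it was read as hg19. The series' design text names an input library of another series for the Myc and RNAPII lists, which therefore share it. That input was not used here. The deposited score of each peak is the authors' value and was used only within a list. Scores of 3100 are shared by many peaks, so ranks there are ties.

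Start sites and the 2.5 kb distance were given with the gene names, and strands are textbook knowledge. Members, lists and comparisons were chosen with earlier results of these data known. All 6 members are described in every list. Peaks of 1 library per condition were counted, with no test. Background shares had exact (Clopper-Pearson) 95% binomial intervals of at most 0.8 points to each side, which cover counting error only. Neighbouring windows overlap. Python 3.11.15 with numpy 2.4.6, pandas 2.3.3, scipy 1.17.1 and matplotlib 3.10.9 was used. On simulated data the overlap code was tested with planted peaks (200 of 200 planted windows right). On the real lists it gave equal counts to bedtools 2.31.1 in 9 of 9. Alternatives were windows of 1 and 5 kb, start sites covered, score filters, equal list lengths and peak middles, and, added later, 12 kb, 4309 or 8666 peaks and higher-scoring or wider H3K4me3 regions. Other cell-cycle genes and E-box motifs, planned for an hg19 annotation, were not analysed here, and mouse lists were not used.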

Additional observations from a re-analysis of the deposited data

How the results depend on the processing

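The number of members with a peak stayed within 1.5 times in all 9 lists with windows of 1 kb or 5 kb and with the middle of the peak in the window. At 1 kb, Myc lay at 3 members at 24 h (without CDKN1A) and at 5 at high Myc (without CDKN1B). With the start site itself covered, Myc fell to 1 member at 1 h and 1 at 24 h (CDC25A in both) and 0 at low Myc, and H3K27ac to 3. At high Myc it then lay at 4 members (CCND2, CDC25A, CDKN1A and CDKN2B). Among peaks at or above the median score, Myc lay at 1 member at 1 h, 2 at 24 h and 4 at high Myc (without CDKN1B and CDKN2B). With lists cut to the length of the shortest of the same antibody (791 for Myc), it lay at 0 members at 1 h, 24 h, low Myc and high Myc. The best-ranked Myc peak of any member, at CCND2 at high Myc, had rank 865 and so fell outside that cut. With 4309 peaks Myc lay at 1 member at 1 h, 2 at 24 h and 2 at high Myc. With 8666 peaks Myc lay at 2 at 1 h (CCND2 and CDC25A), 2 at 24 h (CCND2 and E2F1) and 4 at high Myc. Within 12 kb, low Myc had 2 members, the second being CDKN1A. Background shares were not taken under these settings, so whether the changes in count are particular to the members was not tested.

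The background share with the H3K4me3 peak itself as region was 21.2% for Myc at 1 h, 38.1% at 24 h, 9.93% at low Myc and 48.5% at high Myc, 23.2% and 36.1% for RNAPII at 0 and 24 h and 83.0% for H3K27ac. Around H3K4me3 peaks at or above the median score it was 2.34% for Myc at 0 h, 36.5% at 1 h, 60.8% at 24 h, 17.2% at low Myc and 77.4% at high Myc, 42.5% and 67.3% for RNAPII and 94.5% for H3K27ac. No paired analysis was possible because each P493-6 condition had 1 library and no result came from a test. Depth is unknown, so a peak just under the authors' threshold cannot be told apart from none.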

Other observations

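CCND2 and CDKN1A had H3K4me3 peaks among the widest of the list. At least as wide as the 9768 bp peak of CCND2 were 143 peaks, or 0.477% of the list, and at least as wide as the 7259 bp peak of CDKN1A were 466, or 1.56%. Among the 143, the central window had Myc in 43.4% at 1 h, 69.2% at 24 h, 22.4% at low Myc and 76.2% at high Myc. As many Myc peaks as at CCND2 were found in 4.20% of them at 1 h (3 peaks), 4.90% at 24 h (4 peaks) and 20.3% at high Myc (3 peaks). Among the 466, Myc was called in 47.9% at 1 h and 76.6% at 24 h, and CDKN1A had no peak at 1 h and 1 at 24 h. Of all background windows, 0.344% held 3 or more Myc peaks at 1 h, 0.267% held 4 or more at 24 h and 2.74% held 3 or more at high Myc. The 4 peaks at 24 h include 2 in the second stretch, of 947 and 369 bp, where high Myc had 1 peak of 1841 bp. The shares thus depend on how a stretch was split into peaks. The counts at CCND2 include the first stretch, whose peaks reached the window only with their ends. These lay 2405 bp (1 h), 2415 bp (24 h) and 2385 bp (high Myc) upstream, so the shares depend on the edge at 2.5 kb.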
